A study of Mus with 18 samples.

Results

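The genes described here carry iron into cells, out of cells and into storage, and were taken by symbol from the RNA-seq tables of a mouse study. They are Tfrc, Trf, Slc11a2 and Slc11a1 (uptake), Slc40a1 and Hamp (export and its hormone), Fth1 and Ftl1 (storage), and Ireb2 and Aco1 (the sensors). All 10 were found among the 21401 gene symbols of each table. RNA was sequenced from C2C12 cells, a mouse myoblast line (myoblasts fuse to form muscle fibres), and from gastrocnemius, a calf muscle trimmed of fat and connective tissue, of wild-type C57BL/6 male mice, with 3 libraries in each of 3 groups per experiment and 18 in all. The C2C12 groups were a saline vehicle control according to the labels (the methods name ethanol as the vehicle in cells), lipopolysaccharide (LPS, a bacterial cell wall component) at 1 μg/mL, and LPS with MIC-1, an isothiocyanate from moringa seeds, for 24 h. The labels give 10 μM MIC-1 for the cells, a lower concentration being named for the sequenced cells in the study's text. Mice received a vehicle (saline in the labels, dilute DMSO by mouth in the study's text), 10 mg/kg LPS into the abdominal cavity, or 80 mg/kg MIC-1 by gavage daily for 3 days followed by LPS, and muscle was taken 16 h after LPS. The comparisons ask how LPS shifted each gene and whether MIC-1 altered that shift.

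Iron circulates bound to transferrin, enters cells through the transferrin receptor and is moved from the endosome to the cytosol by a divalent metal transporter. Surplus iron is stored in ferritin, a shell of heavy and light subunits, or leaves through ferroportin, which the hormone hepcidin degrades. In iron-poor cells the iron regulatory proteins bind ferritin and transferrin receptor transcripts, blocking translation of the first and protecting the second from decay, and in inflammation macrophages are known to hold back iron.

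Values are FPKM, read counts scaled for transcript length and depth, so that levels can be set side by side between genes within a library. The 2 tables were normalised apart, and no test was made between them. Differences were tested with limma on log2(FPKM + 0.1) among genes with a mean FPKM over 1, with Benjamini-Hochberg adjustment over all genes tested. A gene is said to have risen or fallen at an adjusted p under 0.001 in C2C12 and under 0.05 in muscle, at any fold change. Of the 10 genes, 9 passed the FPKM filter in C2C12, where 10877 genes of the table passed it in all, and 8 in muscle, where 9475 did. Pearson's r between replicates, taken across genes, was 0.936 to 0.989 for C2C12 and 0.949 to 0.962 for muscle. The labels do not say whether replicates were separate cultures or animals, so p-values measure the spread between these samples.

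Markers went against some labels. In C2C12, 12 of 15 listed macrophage genes were found and summed to 9692 to 9745 FPKM in control, 6931 to 7103 with LPS and 79.8 to 269 with LPS-MIC-1. The 2 most abundant, Lyz2 and Cd14, had means of 4694 and 705 FPKM in control, 1838 and 2040 with LPS and 17.1 and 99.3 with LPS-MIC-1. The 10 myogenic genes found, of 11 listed, summed to 0.136 to 0.440 FPKM in control, 0.364 to 2.23 with LPS and 794 to 1004 with LPS-MIC-1, with 5 of them at 0 in all control libraries. Des and Cdh15 averaged 398 and 178 FPKM in LPS-MIC-1 and at most 0.498 in the other groups. The libraries labelled control and LPS thus lacked defining genes of the named cell line, and LPS-MIC-1 replicate 1, at 269 FPKM, held more macrophage signal than the other 2. Each C2C12 difference between LPS-MIC-1 and another group is one between libraries whose cell type markers also differ, and MIC-1 and cell type cannot be told apart. Control and LPS differed less, with a median of the macrophage genes of 473 to 482 FPKM in control and 206 to 217 with LPS. The part of this in the C2C12 differences of LPS from control was not tested. In muscle, 15 of 16 listed LPS response genes were found and summed to 28.3 to 30.7 FPKM in control, 28.1 to 28.9 with LPS and 661 to 724 with LPS-MIC-1, so libraries labelled LPS did not exceed control. Muscle LPS-MIC-1 replicate 3 had a macrophage sum of 181 FPKM against 31.1 and 32.9 in the other 2 and 16.3 to 24.5 in control and LPS.

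In the C2C12 libraries labelled LPS, ferritin and both metal transporters were several times higher than in control, with Fth1 the most abundant gene of each LPS library. Of the 9 genes tested, 6 rose in LPS, where 18.6% of all genes tested rose, and 2 fell, where 19.3% of all genes fell. The median log2 fold change was 2.01 for the 9 genes and 0.00 for all genes. Hamp, among the 6, passed the filter only through LPS and so had to differ. Trf, among the 2, passed it only through control when LPS and LPS-MIC-1 are pooled. Its mean with LPS alone, 1.61 FPKM, was over the filter, so its fall in LPS was not fixed. In LPS-MIC-1 against LPS, 1 gene rose (32.8% of all genes did) and 6 fell (33.7% of all genes did), with a median of -2.52 against -0.05. In LPS-MIC-1 against control, 2 rose against 29.9% of all genes and 4 fell against 30.5%, with a median of -0.51 against -0.06.

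**Figure D1:**
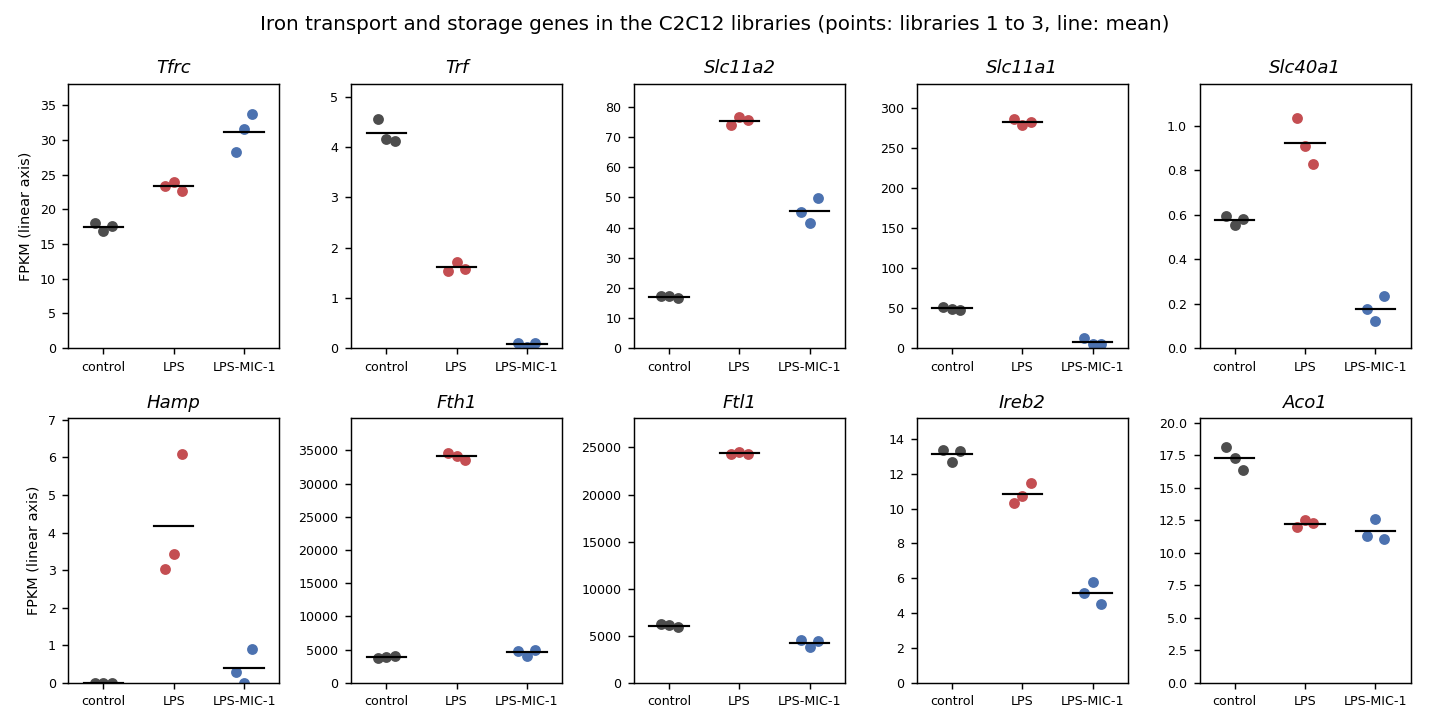
FPKM of each gene in the C2C12 libraries on linear axes that start at 0, one panel per gene, with points for the 3 libraries of each labelled group and a line for their mean. Fth1, Ftl1, Slc11a1, Slc11a2 and Hamp were highest in the LPS libraries, Trf was highest in control, and Tfrc was highest in LPS-MIC-1.

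Tfrc, the transferrin receptor, had 18.0, 16.9 and 17.6 FPKM in the C2C12 control libraries, 23.4, 24.0 and 22.7 with LPS and 28.3, 31.5 and 33.8 with LPS-MIC-1. The 3 groups were ordered in steps and did not overlap. Tfrc rose in LPS by 0.41 on the log2 scale (SE 0.0693, adjusted p = 0.000963) and in LPS-MIC-1 against LPS by the same 0.41 (adjusted p = 0.000583). Both calls lay near the threshold, and over the alternatives the adjusted p reached 0.00547 and 0.00356. Against control, LPS-MIC-1 was 1.78-fold higher (log2 0.83, SE 0.0693, adjusted p = 8.43e-06).

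Trf, which encodes transferrin itself, went the other way. It had 4.56, 4.16 and 4.12 FPKM in control, 1.54, 1.71 and 1.57 with LPS and 0.0972, 0.0263 and 0.10 with LPS-MIC-1. The groups did not overlap and the LPS-MIC-1 libraries were all near 0. Trf passed the filter only through control, since the other 6 libraries together averaged 0.841 FPKM, so a lower mean of those libraries was fixed. With LPS alone the mean was 1.61 FPKM, over the filter, so the filter did not fix the difference of LPS from control. Trf fell by 1.36 in LPS against control (SE 0.193, adjusted p = 0.000378, or 0.0180 with 0.01 added in place of 0.1), and by 3.32 in LPS-MIC-1 against LPS (adjusted p = 7.29e-07), a size that depends on the added 0.1 (-1.28 with 1 added and -4.42 with 0.01).

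Slc11a2, the divalent metal transporter of most cells, had 17.3, 17.4 and 16.6 FPKM in control, 74.2, 76.8 and 75.6 with LPS and 45.2, 41.4 and 49.7 with LPS-MIC-1. LPS libraries were highest, LPS-MIC-1 libraries lay between, and no groups overlapped. The gene rose 4.41-fold in LPS (log2 2.14, SE 0.0656, adjusted p = 1.08e-07) and was 2.66-fold above control in LPS-MIC-1 (log2 1.40, adjusted p = 2.36e-07), having fallen by 0.74 against LPS (adjusted p = 1.09e-05).

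Slc11a1, the related transporter of phagocyte vesicles, had 52.0, 49.4 and 47.3 FPKM in control, 287, 279 and 283 with LPS and 12.3, 4.96 and 4.76 with LPS-MIC-1. The LPS libraries were highest and the LPS-MIC-1 libraries lowest, with replicate 1, the one with the larger macrophage sum, above the other 2. It rose 5.70-fold in LPS (log2 2.51, SE 0.319, adjusted p = 0.000199), and in LPS-MIC-1 fell by 5.39 against LPS (adjusted p = 8.16e-07) and by 2.88 against control (adjusted p = 4.87e-05). Without replicate 1 of LPS-MIC-1 the differences were -5.83 and -3.32 (adjusted p = 3.96e-10 and 4.80e-09). The part of cell type in these values was not tested.

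Slc40a1, which encodes ferroportin, was under the filter in C2C12, with 0.593, 0.556 and 0.580 FPKM in control, 1.04, 0.908 and 0.829 with LPS and 0.174, 0.124 and 0.235 with LPS-MIC-1. The groups did not overlap, at levels where the authors' normalised counts averaged 44.4 per library in the table of control and LPS and 26.9 in that of LPS and LPS-MIC-1. Hamp, which encodes hepcidin, was listed at 0 in all control libraries, had 3.03, 3.42 and 6.09 FPKM with LPS and 0.296, 0 and 0.909 with LPS-MIC-1. Hamp passed the filter only through LPS and so had to be higher there. It rose in LPS (adjusted p = 0.000310), and its difference of LPS-MIC-1 from LPS did not pass (adjusted p = 0.00189). That difference did pass with 1 added (0.000152) and without LPS-MIC-1 replicate 2 or 3 (0.000916 and 0.000256). The authors' normalised counts of Hamp averaged 8.80 per library in the table of control and LPS, so these FPKM rest on few reads.

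The ferritin subunits had the highest FPKM of the 10 genes in every library. Fth1, the heavy subunit with the ferroxidase site, had 3776, 3952 and 4104 FPKM in control, 34644, 34214 and 33476 with LPS and 4790, 4047 and 4899 with LPS-MIC-1. LPS libraries were far above the other groups, which overlapped each other. Fth1 rose 8.65-fold in LPS (log2 3.11, SE 0.118, adjusted p = 2.93e-07) and fell by 2.90 in LPS-MIC-1 against LPS (adjusted p = 9.81e-08), and LPS-MIC-1 differed from control by 0.21 (95% interval -0.06 to 0.48, adjusted p = 0.131). Quantile normalization, which gives each rank 1 value, reduced the rise to 1.47 and the fall to -1.87.

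Ftl1, the light subunit that aids mineral formation, had 6205, 6103 and 5882 FPKM in control, 24288, 24499 and 24343 with LPS and 4532, 3804 and 4430 with LPS-MIC-1. The groups did not overlap, with LPS highest and LPS-MIC-1 lowest. It rose 4.02-fold in LPS (log2 2.01, SE 0.114, adjusted p = 2.15e-06) and fell by 2.52 in LPS-MIC-1 against LPS (adjusted p = 1.67e-07). The difference of -0.51 between LPS-MIC-1 and control did not pass (adjusted p = 0.00306), although it did with 1 added, without the trend, under quantile normalization or without LPS-MIC-1 replicate 3 (0.000656, 0.000352, 7.60e-08 and 0.000432). Quantile normalization also reduced the rise in LPS to 0.00, since Ftl1 held the same rank in all control and LPS libraries. Ferritin genes have near-identical copies elsewhere in the genome, so reads could be split between them, and these levels are uncertain to that degree.

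By library, the ratio of Fth1 to Ftl1 FPKM in C2C12 was 0.609 to 0.698 in control, 1.38 to 1.43 with LPS and 1.06 to 1.11 with LPS-MIC-1. The light subunit was the more abundant transcript in control and the heavy subunit in the other groups. The mean log2 ratio of LPS exceeded that of control by 1.11 and that of LPS-MIC-1 by 0.38, with no overlap of groups (2-sided exact permutation test, p = 0.1, the smallest that 3 against 3 libraries can give). Together the subunits made up 1.82% ± 0.0118 of all FPKM in control, 8.42% ± 0.168 with LPS and 1.24% ± 0.113 with LPS-MIC-1 (SD, n = 3). By rank of FPKM within a library, Fth1 was between 7 and 9 in control, 1 in all LPS libraries and between 10 and 15 in LPS-MIC-1, and Ftl1 was at 2 in every control and LPS library.

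**Figure D2:**
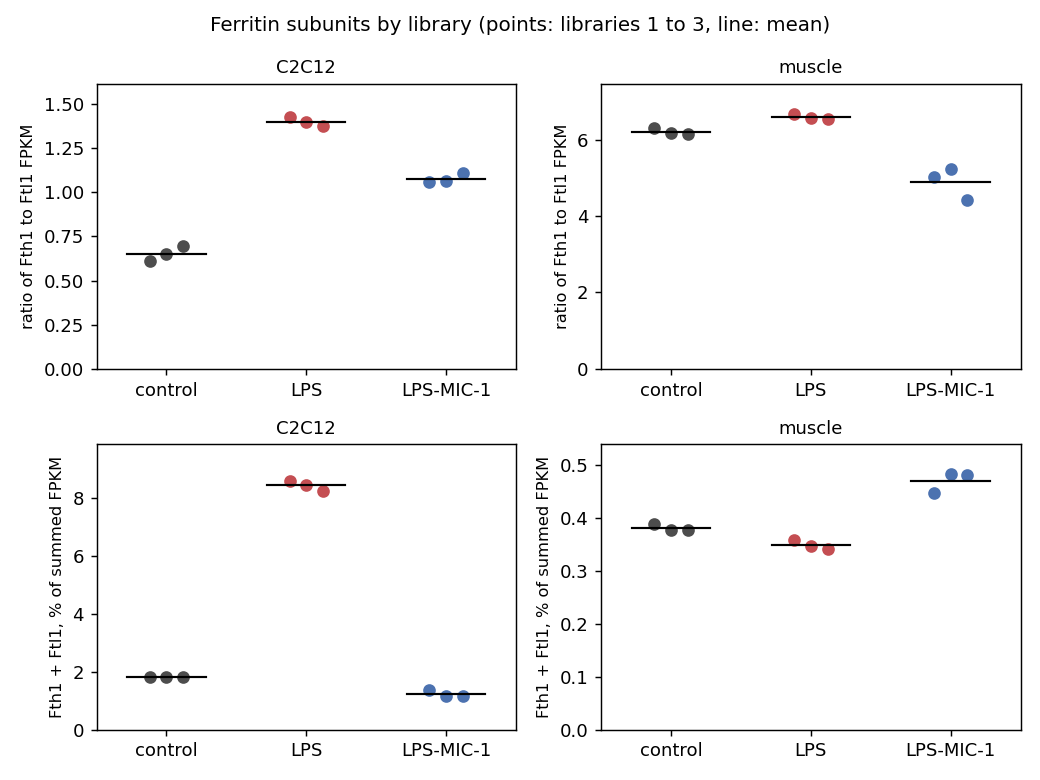
Upper panels give the ratio of Fth1 to Ftl1 FPKM in each library, and lower panels their summed FPKM as a percentage of all FPKM, for C2C12 on the left and muscle on the right, with points for libraries and a line for the mean of 3, on axes that start at 0. In C2C12 the ratio lay between 1.38 and 1.43 in LPS against 0.609 to 0.698 in control, and in muscle it was lowest in LPS-MIC-1, at 4.42 to 5.23.

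Ireb2 and Aco1 encode the iron regulatory proteins, the second of which is cytosolic aconitase when it carries an iron-sulphur cluster. Ireb2 had 13.4, 12.7 and 13.3 FPKM in control, 10.3, 10.7 and 11.5 with LPS and 5.14, 5.80 and 4.54 with LPS-MIC-1, in steps without overlap. It fell in LPS-MIC-1 by 1.06 against LPS (SE 0.0962, adjusted p = 1.21e-05) and by 1.33 against control (adjusted p = 3.27e-06), and its difference of -0.27 between LPS and control did not pass (adjusted p = 0.0370).

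Aco1 had 18.1, 17.3 and 16.3 FPKM in control, 11.98, 12.5 and 12.3 with LPS and 11.3, 12.6 and 11.1 with LPS-MIC-1. Control libraries were highest, and the other 2 groups overlapped. It fell by 0.49 in LPS (SE 0.0696, adjusted p = 0.000379) and by 0.56 in LPS-MIC-1 (adjusted p = 9.85e-05, or 0.00104 from the 6 libraries alone) against control, with -0.07 between LPS-MIC-1 and LPS (95% interval -0.23 to 0.09, adjusted p = 0.349).

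Some C2C12 calls between LPS and control were lost when a library was left out. Leaving out any control or LPS library raised the adjusted p of Tfrc, Trf, Slc11a1 and Aco1 above 0.001, to at most 0.00547. The same held for Hamp (at most 0.00180), except that without LPS replicate 3, its highest library, its mean fell under the filter and it was not tested. With 0.01 added in place of 0.1, the adjusted p of Hamp was 0.00112. Over the 9 libraries left out in turn, 3 to 6 of the genes rose and 0 to 2 fell. Under a threshold of 0.05, 6 rose and 3 fell.

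In muscle, Tfrc rose in LPS and fell in LPS-MIC-1, while Ftl1 fell in LPS and rose in LPS-MIC-1. Of the 8 genes tested, 1 rose in LPS against control, where 8.25% of all genes rose, and 2 fell, where 7.48% fell. In LPS-MIC-1 against LPS, 3 rose and 3 fell, against 28.3% and 28.2% of all genes. In LPS-MIC-1 against control, 2 rose and 2 fell, against 30.0% and 28.5%. The medians over the 8 genes were 0.07, 0.00 and 0.04 in the same order, against 0.01, -0.01 and 0.01 for all genes. In the last 2 comparisons the shares of the 8 genes, 37.5% and 25%, were not far from those of all genes. The libraries labelled LPS-MIC-1 were also the ones with LPS response genes at 661 to 724 FPKM in sum, and the part of that response in the following differences was not tested.

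**Figure D3:**
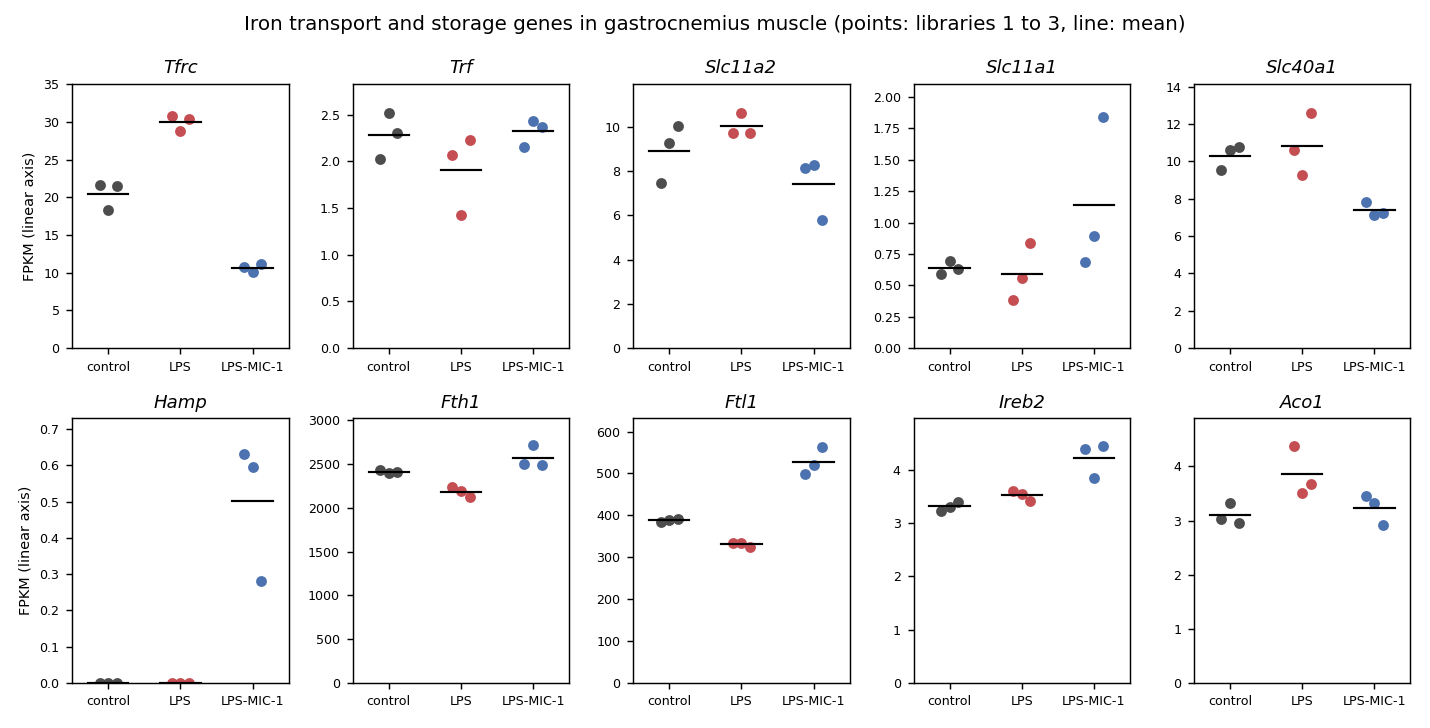
FPKM of each gene in the gastrocnemius libraries on linear axes that start at 0, one panel per gene, with points for the 3 libraries of each labelled group and a line for their mean. Tfrc was lowest in LPS-MIC-1, Ftl1 was highest in LPS-MIC-1, and Hamp was above 0 only in the LPS-MIC-1 libraries.

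Tfrc had the clearest separation of the muscle genes. It had 21.6, 18.3 and 21.5 FPKM in control, 30.9, 28.8 and 30.4 with LPS and 10.8, 10.0 and 11.2 with LPS-MIC-1. All LPS libraries were above all control libraries, and all LPS-MIC-1 libraries below. Tfrc rose 1.47-fold in LPS (log2 0.55, SE 0.0740, adjusted p = 0.00184), and fell by 1.48 in LPS-MIC-1 against LPS (adjusted p = 8.18e-07) and by 0.93 against control (adjusted p = 1.28e-05). Its 3 calls held under the alternatives other than a minimum fold change, with an adjusted p of at most 0.0105. Under that minimum only the call of LPS-MIC-1 against LPS held. In bulk tissue, fewer cells of a type and less RNA per cell cannot be told apart, and the 7 erythroid genes found, of 12 listed, which include the globins of blood cells with a high need for iron, summed to 437 to 530 FPKM in control, 607 to 651 with LPS and 542 to 605 with LPS-MIC-1. The sum of the 10 myogenic genes found followed the order of Tfrc. It was 4537 to 4600 FPKM in control, 5774 to 5866 with LPS and 2908 to 3163 with LPS-MIC-1. The median of these genes did so too, at 7.70 to 8.26, 12.5 to 13.1 and 5.41 to 6.61 FPKM. Among the most abundant of them, Actc1 did as well, with means of 2834, 4057 and 1140 FPKM in control, LPS and LPS-MIC-1. Des did not, with means of 1607, 1590 and 1788 FPKM, highest in LPS-MIC-1. The 12 muscle fibre genes summed to 216928 to 221947, 206573 to 210321 and 164749 to 177795 FPKM in the same order of groups, lowest in LPS-MIC-1. Their median went the other way, at 11619 to 11908, 11616 to 11793 and 13418 to 14229 FPKM, highest in LPS-MIC-1. The part of these genes in the Tfrc differences was not tested.

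Of the other uptake genes, Slc11a2 alone passed a test in muscle. Trf had 2.02, 2.52 and 2.31 FPKM in control, 2.07, 1.42 and 2.23 with LPS and 2.16, 2.44 and 2.37 with LPS-MIC-1, with overlapping groups and adjusted p of 0.186 or more. Slc11a2 had 7.47, 9.26 and 10.0 FPKM in control, 9.72, 10.6 and 9.72 with LPS and 8.13, 8.28 and 5.81 with LPS-MIC-1. Only LPS and LPS-MIC-1 did not overlap, and Slc11a2 fell by 0.45 between them (SE 0.153, adjusted p = 0.0351). Without LPS-MIC-1 replicate 3, its lowest library, the difference was -0.28 (adjusted p = 0.0843), and without any one of the LPS libraries the adjusted p was 0.0657 to 0.0987. With replicate number added to the limma fit it was 0.0529. The difference of LPS-MIC-1 from control passed only under quantile normalization (adjusted p = 0.0394). Slc11a1 was under the filter, with 0.385 to 0.834 FPKM in control and LPS and 0.683, 0.889 and 1.84 in LPS-MIC-1, the highest being replicate 3, where the macrophage sum was also highest.

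Slc40a1 had 9.52, 10.6 and 10.8 FPKM in control, 10.6, 9.28 and 12.6 with LPS and 7.83, 7.14 and 7.22 with LPS-MIC-1. Control and LPS overlapped (log2 0.06, 95% interval -0.19 to 0.31, adjusted p = 0.748), and all LPS-MIC-1 libraries were lower. It fell in LPS-MIC-1 by 0.53 against LPS (SE 0.108, adjusted p = 0.00309) and by 0.47 against control (adjusted p = 0.00567). Hamp was listed at 0 in the 6 control and LPS libraries and had 0.632, 0.594 and 0.282 FPKM in LPS-MIC-1, under the filter and with 4.89 of the authors' normalised counts in all over the 6 LPS and LPS-MIC-1 libraries.

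Muscle Fth1 had 2427, 2393 and 2406 FPKM in control, 2232, 2193 and 2119 with LPS and 2506, 2717 and 2486 with LPS-MIC-1. The groups did not overlap, with LPS lowest. Fth1 rose by 0.24 in LPS-MIC-1 against LPS (SE 0.0370, adjusted p = 0.000747) and its 0.09 against control did not pass (adjusted p = 0.0614). It fell by 0.14 in LPS against control (adjusted p = 0.0339), a call lost when any control or LPS library was left out (adjusted p 0.0595 to 0.114), without the filter (0.0720) or without the trend (0.102). The difference of LPS-MIC-1 from control passed without LPS-MIC-1 replicate 3 (0.0342).

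Ftl1 had 385, 388 and 391 FPKM in control, 335, 334 and 324 with LPS and 499.6, 519.8 and 562 with LPS-MIC-1. It was lowest in LPS and highest in LPS-MIC-1, without overlap. Ftl1 fell by 0.23 in LPS (SE 0.0414, adjusted p = 0.00753), and rose 1.59-fold in LPS-MIC-1 against LPS (log2 0.67, adjusted p = 2.85e-06) and 1.36-fold against control (log2 0.44, adjusted p = 3.45e-05). These 3 calls held under the alternatives other than a minimum fold change. The highest library was LPS-MIC-1 replicate 3, where the macrophage sum was also highest, and the part of macrophage genes was not tested.

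The ratio of Fth1 to Ftl1 was 6.16 to 6.31 in control muscle, 6.55 to 6.67 with LPS and 4.42 to 5.23 with LPS-MIC-1, so the heavy subunit prevailed in all muscle libraries. The lowest ratio was that of LPS-MIC-1 replicate 3, the library with the highest macrophage sum. Groups did not overlap (2-sided exact permutation test, p = 0.1 in each comparison, the smallest possible), and the mean log2 ratio was 0.44 lower for LPS-MIC-1 than for LPS and 0.35 lower than for control. Together the subunits held 0.381% ± 0.00688 of all FPKM in control, 0.349% ± 0.00842 with LPS and 0.470% ± 0.0200 with LPS-MIC-1 (SD, n = 3).

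Of the sensors in muscle, Ireb2 had 3.24, 3.30 and 3.40 FPKM in control, 3.61, 3.55 and 3.41 with LPS and 4.39, 3.84 and 4.46 with LPS-MIC-1, the highest group. It rose in LPS-MIC-1 by 0.25 against LPS (SE 0.0792, adjusted p = 0.0239) and by 0.34 against control (adjusted p = 0.00604). The first call was lost without LPS replicate 2 or 3 or LPS-MIC-1 replicate 1 or 3 (adjusted p 0.0534 to 0.0739) and under quantile normalization (0.267). Aco1 had 3.04, 3.32 and 2.95 FPKM in control, 4.37, 3.50 and 3.68 with LPS and 3.46, 3.32 and 2.91 with LPS-MIC-1, with adjusted p of 0.0926 or more. All LPS libraries were above those of the other groups. The difference of LPS-MIC-1 from LPS, -0.24, passed only under quantile normalization (-0.39, adjusted p = 0.0165).

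**Figure D4:**
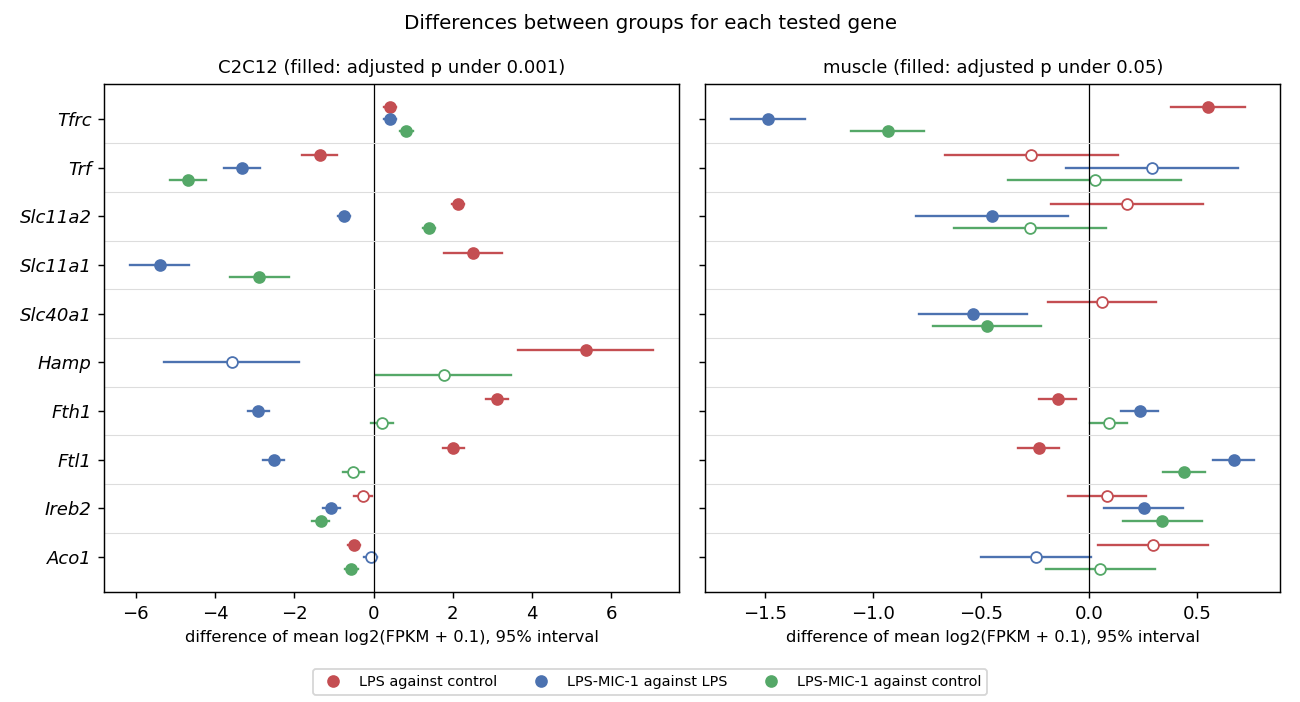
Difference of the mean log2(FPKM + 0.1) between groups, with its 95% interval, for each tested gene (rows) in C2C12 (left) and muscle (right), on axes of different width. Filled points passed the adjusted p of 0.001 or 0.05. Fth1 and Ftl1 lay at 3.11 and 2.01 for LPS against control in C2C12 and at -0.14 and -0.23 in muscle, and Tfrc lay at 0.41 and -1.48 for LPS-MIC-1 against LPS.

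By level, the order in control C2C12 libraries was Ftl1, Fth1, Slc11a1, then Tfrc, Aco1 and Slc11a2, whose libraries overlapped, then Ireb2, Trf, Slc40a1 and Hamp. In control muscle the order was Fth1, Ftl1, Tfrc, then Slc40a1 and Slc11a2, which overlapped, then Ireb2 and Aco1, which also overlapped, then Trf, Slc11a1 and Hamp. Over the 9 muscle libraries, the genes whose log2 values followed Tfrc most closely were Lman1, Slmo2 and 2010106G01Rik, each with a Pearson r of 0.994. Fth1 was followed by Rplp2 (0.992), Nelf (0.983) and Mapk8ip3 (0.968), and Slc40a1 by Tmem64 (0.974), Cog4 (0.973) and Pdzd11 (0.972). These coefficients are descriptions over libraries that fall into 3 groups.

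A wider list of 68 iron-handling genes was examined beside these, of which 64 were found, 47 tested in C2C12 and 49 in muscle. In C2C12 LPS against control, 10 (21.3%, against 18.6% of all genes) rose and 16 (34.0%, against 19.3%) fell, with a median log2 of -0.18. In C2C12 LPS-MIC-1 against LPS, 22 (46.8%, against 32.8%) rose and 11 (23.4%, against 33.7%) fell, with a median of 0.38. Against control, 19 (40.4%, against 29.9%) rose and 9 (19.1%, against 30.5%) fell, with a median of 0.29. In muscle LPS against control, 6 (12.2%, against 8.25%) rose and 3 (6.12%, against 7.48%) fell. In muscle LPS-MIC-1 against LPS, 16 (32.7%, against 28.3%) rose and 20 (40.8%, against 28.2%) fell, with a median of -0.13. Against control, 17 rose and 17 fell (34.7% each, against 30.0% and 28.5%), with a median of -0.11. Of the genes tested, 5 in C2C12 (Steap1, Steap2, Hfe2, Neo1 and Atoh8) and 4 in muscle (Hamp2, Cp, Hp and Lcn2) passed the filter only through LPS-MIC-1, where they were high, so their rises there were fixed by the filter.

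Lcn2, lipocalin, which binds bacterial iron carriers, had the largest rise of this list in both experiments. In C2C12 it had 0.530, 1.05 and 1.92 FPKM in control, 2697, 2678 and 2647 with LPS and 72.1, 3.96 and 3.38 with LPS-MIC-1, with replicate 1 again the highest of its group. It rose in LPS by 11.20 (SE 1.08) and fell by 8.05 in LPS-MIC-1 against LPS. In muscle it had 0.111 to 0.991 FPKM in control, 0.336 to 1.34 with LPS and 1162 to 1318 with LPS-MIC-1, a rise of 11.28 (SE 0.621) in LPS-MIC-1 over control. Lcn2 passed the filter in muscle only through LPS-MIC-1, so that there was a rise was fixed. The 8 neutrophil genes found, of 9 listed, summed to 1.73 to 2.74, 1.76 to 2.02 and 14.1 to 19.9 FPKM in the same muscle groups, and their part in this rise was not tested.

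In C2C12, Hmox1, the haem oxygenase that frees iron from haem, had 144 to 145 FPKM in control, 4470 to 4591 with LPS and 179, 67.4 and 75.5 with LPS-MIC-1, and fell by 5.54 in LPS-MIC-1 against LPS. Herc2, a ubiquitin ligase, fell by 5.58, from 3.61 to 6.71 FPKM in LPS to 0.0141 to 0.0183 in LPS-MIC-1. Steap1, of a family of metalloreductases, was listed at 0 in control and LPS and had 53.7, 59.9 and 69.3 FPKM in LPS-MIC-1. Neo1, a receptor for haemojuvelin, had 0.0276 to 0.115 FPKM in control and LPS and 25.3 to 27.1 in LPS-MIC-1, 7.62 higher than control on the log2 scale. Steap1 and Neo1 passed the filter only through LPS-MIC-1, so they had to be higher there. Of the 6 tested genes of storage and delivery, 0 rose and 3 fell in LPS-MIC-1 against LPS, where 32.8% and 33.7% of all genes did. In the same comparison all 5 tested genes of hepcidin control rose, 3 of them having passed the filter only through LPS-MIC-1.

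In muscle, Hp, haptoglobin, the plasma protein that binds free haemoglobin, had 0 to 0.571 FPKM with LPS and 24.8 to 26.8 with LPS-MIC-1 and rose by 6.20 (SE 0.659). Hp passed the filter only through LPS-MIC-1, so that there was a rise was fixed. Hamp2, the second hepcidin gene and a close copy of Hamp, was listed at 0 in all control and LPS muscle libraries and had 3.26, 2.80 and 3.45 FPKM in LPS-MIC-1, several times the FPKM of Hamp there, although reads of the pair may have been shared out between them. Hamp2 was at 0 in all C2C12 libraries. The 8 listed liver genes summed to 1.35 to 1.65 FPKM in control muscle, 4.04 to 4.89 with LPS and 6.64 to 7.80 with LPS-MIC-1, and their part in Hp and Hamp2 was not tested. Slc39a14, an importer of iron not bound to transferrin, chosen after its values were seen, had 1.87 to 2.15 FPKM in control, 2.33 to 2.77 with LPS and 47.4 to 51.2 with LPS-MIC-1. Of the falls, Blvrb, a biliverdin reductase, went from 7.21 to 8.87 FPKM in control to 2.47 to 4.09 in LPS-MIC-1, falling by 1.34. Slc25a37, the mitochondrial iron importer, fell by 1.08 against control, and Bmp6, an inducer of hepcidin, by 1.02 against LPS. Of 5 tested genes of storage and delivery, 4 fell and 0 rose in LPS-MIC-1 against LPS, where 28.2% and 28.3% of all genes did. These falls ranged from -0.15 (Pcbp1) to -0.47 (Nubp1) on the log2 scale. Against control, 2 of the 5 fell and 0 rose, where 28.5% and 30.0% of all genes did. All 4 tested genes of export, oxidation and plasma binding rose against LPS, 3 of them having passed the filter only through LPS-MIC-1.

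**Figure D5:**
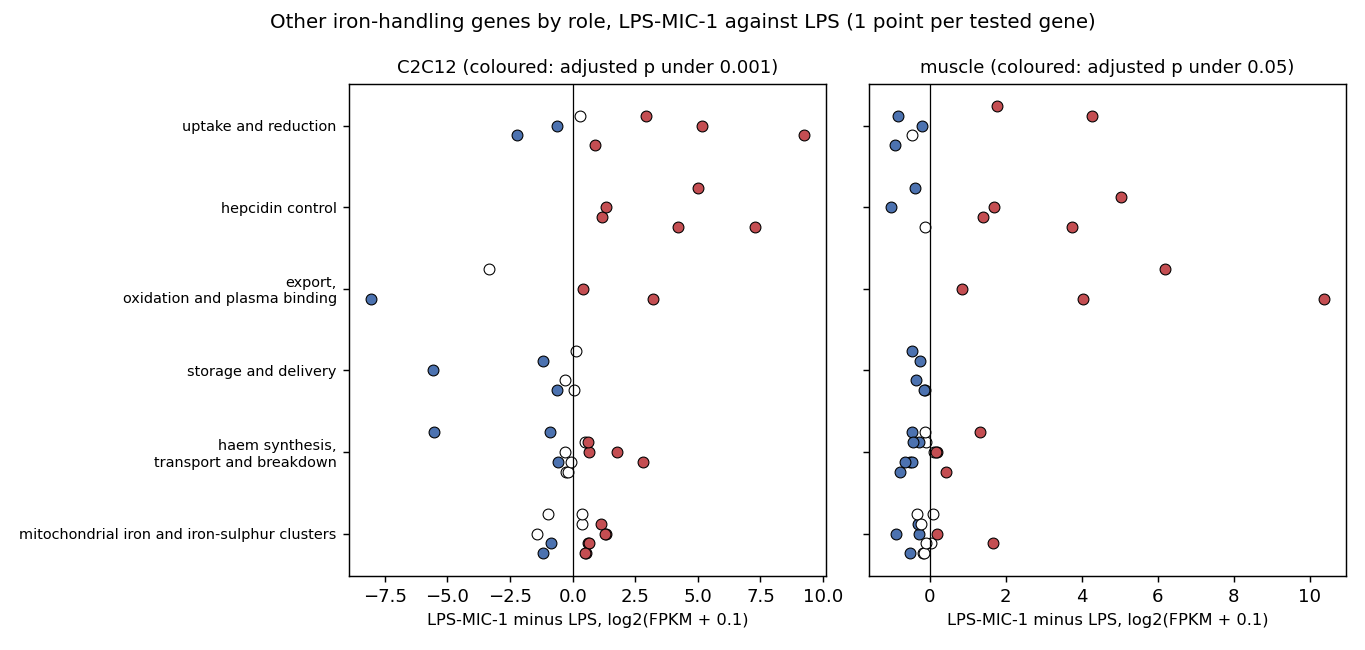
Difference of LPS-MIC-1 from LPS in mean log2(FPKM + 0.1) for each tested gene of the wider iron list, one point per gene, by role (rows), in C2C12 (left) and muscle (right), with genes that rose in red, genes that fell in blue and the rest white. In muscle the 5 genes of storage and delivery lay to the left of 0. The muscle points reached from Bmp6 at -1.02 up to Lcn2 at 10.37, one of the genes that passed the filter only through LPS-MIC-1.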

How the data were processed

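According to the labels and methods, the authors pseudoaligned reads with kallisto, and the submitters' processing notes name genome build mm9 and DESeq2. They deposited FPKM values per gene symbol and library for C2C12 and muscle. The muscle table held 11 further columns without a name, 9 of them with values, which were not used. The deposited DESeq2 tables hold fold changes and p-values, which were not used, and mean normalised counts (an average signal per gene over the libraries compared), used as the authors' values to judge depth. The 5 tables used summed to 13873466 to 18734426 such counts. Depth per library is not stated, so no counting interval was given.

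FPKM values were fitted per experiment with limma 3.58.1 in R 4.3.3, on log2(FPKM + 0.1), 3 groups of 3 libraries, eBayes with trend. Pearson coefficients used the same scale. Figures were made with matplotlib 3.10.9 in Python 3.11.15. On simulated data with 100 genes changed by 1 and 100 by 2 on the log2 scale, the C2C12 comparison of LPS with control recovered 48% and 76% of the changed genes (10877 genes, 0 wrong calls), and that in muscle 77% and 90% (9475 genes, 2 wrong calls).

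The genes and lists were chosen with earlier results of these data known. Of the wider iron list, the 3 largest rises and 3 largest falls past the threshold in each experiment were named, of each marker list used the 2 most abundant genes, and for Tfrc, Fth1 and Slc40a1 the 3 genes most like them. Alternatives were other pseudocounts, filters, scalings, eBayes without trend, 6 libraries only, a replicate block, other call rules and leaving out each library.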

Additional observations from a re-analysis of the deposited data

Results flagged for a closer look

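Several genes went in opposite directions in C2C12 and in muscle under the same labelled contrast, with every library of one group above every library of the other in each experiment. The genes were picked by this rule, and the share of all genes that met it was not counted. In LPS-MIC-1 against LPS, 32.8% of all genes rose and 33.7% fell in C2C12, and 28.3% and 28.2% in muscle. The difference between the experiments was not tested, since the tables were normalised apart. In LPS against control, Fth1 differed by 3.11 on the log2 scale in C2C12 and by -0.14 in muscle, and Ftl1 by 2.01 and -0.23, with all 4 differences past their thresholds. Ireb2 differed by -0.27 and 0.0856, neither past its threshold, and Aco1 by -0.49 and 0.30, the second not past its threshold. The muscle call of Fth1 and the C2C12 call of Aco1 were lost when any control or LPS library was left out.

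In LPS-MIC-1 against LPS, all past their thresholds, Tfrc differed by 0.41 in C2C12 and by -1.48 in muscle, Fth1 by -2.90 and 0.24, Ftl1 by -2.52 and 0.67, and Ireb2 by -1.06 and 0.25. The C2C12 call of Tfrc and the muscle call of Ireb2 were lost under several alternatives. In LPS-MIC-1 against control, Tfrc differed by 0.83 and -0.93, Ireb2 by -1.33 and 0.34, and Ftl1 by -0.51 (not past the threshold) and 0.44. The contrasts share control or LPS libraries, and the part of the label conflicts in these values was not tested. Groups of 3 libraries were not examined for outlying samples.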

How the results depend on the processing

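Over the alternatives, 822 of 900 values for single genes stayed on their side of the threshold, 68 no longer passed, 10 newly passed and 0 turned a called direction, and the 48 alternative values of the ferritin ratios moved by less than 1 SD. Low FPKM rest on few reads, and depth per library is not stated. Without the FPKM filter, Slc40a1 in C2C12 LPS-MIC-1 differed by -1.90 from LPS (limma, adjusted p = 2.48e-05) and by -1.30 from control (0.000296). In muscle, Hamp in LPS-MIC-1 then passed against both groups (8.34e-05 and 7.81e-05). Hamp was listed at 0 in all control and LPS muscle libraries, so it entered this test only through LPS-MIC-1 and had to differ. Slc11a1 did not pass (0.138 or more). Quantile normalization gave 0.00 for Ftl1 in C2C12 LPS against control, since the gene ranks at 2 in every library of both. The cause of the changes below was not tested.

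For the 10 genes in C2C12 LPS against control, the number that fell was 1, not 2, with a pseudocount of 0.01, a mean FPKM over 5, quantile normalization or a fold minimum (absolute log2 over 1), and 0 under the replicate block. The 1 gene that rose in LPS-MIC-1 against LPS (Tfrc) was 0 without trend, with 6 libraries only, under the block or the fold minimum, and 0 to 1 over libraries left out. With the fold minimum, 1 rose in C2C12 LPS-MIC-1 against control, and in muscle 0 rose in any comparison while 0, 1 and 0 fell in LPS against control, LPS-MIC-1 against LPS and LPS-MIC-1 against control. In muscle LPS against control, 2 rose at an unadjusted p under 0.05, and 1 fell without the filter or without trend, and 1 to 2 over libraries left out. In muscle LPS-MIC-1 against control, 1 rose with a mean FPKM over 5. Over C2C12 libraries left out, 3 to 6 rose and 0 to 2 fell in LPS against control.

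For the wider list, the fold minimum left 4 rises and 5 falls in C2C12 LPS against control, 14 and 6 in LPS-MIC-1 against LPS, and in muscle 0 and 0, 1 fall in LPS-MIC-1 against LPS, and 11 rises and 2 falls against control. In C2C12 LPS against control, 9 fell under the block and 7 to 18 over libraries left out. In C2C12 LPS-MIC-1 against LPS, 7 fell with 6 libraries only and 17 at either p under 0.05. In LPS-MIC-1 against control, 15 fell under quantile normalization and 14 at either p. In muscle LPS against control, 12 rose and 6 fell at the unadjusted p, 1 fell without trend, and libraries left out gave 3 to 6 rises and 0 to 4 falls.

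Replicate numbers are shared between groups, and deviations of libraries with the same number correlated with r from -0.0757 to 0.0823. These low values gave no ground to assume pairing, but they cannot exclude it. With the block, the calls of Tfrc, Trf and Aco1 in C2C12 LPS against control (adjusted p = 0.00415, 0.00180 and 0.00140 in limma), of Tfrc in C2C12 LPS-MIC-1 against LPS (0.00263) and of Slc11a2 in muscle LPS-MIC-1 against LPS (0.0529) were not made. Every muscle LPS-MIC-1 library correlated best with the LPS library of its own number, a hint from the data and not the design.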

Other observations

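The genes of this paragraph belong to the wider iron list and were chosen after their values were seen. In muscle, the mitochondrial iron importers diverged. Slc25a28 rose by 1.66 in LPS-MIC-1 against LPS (adjusted p = 1.41e-06 in limma), while Slc25a37 fell by 0.89. The metalloreductases also parted, with Steap4 up by 1.78 and Steap3 down by 0.83. Of the hepcidin pathway, the signal transducers Smad1 and Smad5 rose by 1.40 and 1.70 and the transcription factor gene Atoh8 by 3.76, while Hfe2, which encodes haemojuvelin, fell by 0.39. Of 14 tested genes of haem synthesis, transport and breakdown, 4 rose and 7 fell, and of 13 genes of mitochondrial iron and iron-sulphur clusters, 2 rose and 4 fell, where 28.3% of all genes rose and 28.2% fell.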
